A study of Mus musculus with 10 samples.

Results

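The nuclear genes of the mitochondrial respiratory chain were followed in effector memory (EM) γδ T cells of mice that had cleared a blood-stage malaria infection and of mice that had never been infected. The genes were chosen by their mouse symbol in the count table. The rule took Ndufa, Ndufb, Ndufc, Ndufs or Ndufv followed by digits alone, Uqcr or Atp5 followed by letters and digits, and Sdha to Sdhd. It also took Cox4 to Cox8 followed by an optional letter a, b or c and digits. Names such as Cox4i1, Cox7a2l and Ndufab1 do not match. Cox6a2 was left out, and at least 50 counts summed over the 10 libraries were required. Of 27179 genes, 80 carried such a name and 76 were kept. They encode 35 subunits of complex I, 4 of complex II, 8 of complex III, 12 of complex IV and 17 of complex V. One gene named for complex I, Ndufa4, was counted with complex IV, where its protein is now placed.

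The respiratory chain sits in the inner mitochondrial membrane. Complex I takes electrons from NADH and complex II takes them from succinate, complex III passes them to cytochrome c, and complex IV hands them to oxygen. Complexes I, III and IV pump protons, and complex V, the ATP synthase, uses the proton gradient to make ATP. Most subunits are encoded in the nucleus and imported, while a small number of core subunits of complexes I, III, IV and V are encoded by mitochondrial DNA. Resting memory T cells are known for their reliance on oxidative phosphorylation, whereas recently activated effector cells rely more on glycolysis.

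Spleens came from female C57BL/6 mice, which were 6 to 8 weeks old when the pre-exposed group was infected. The 5 pre-exposed mice had received 50000 red blood cells infected with Plasmodium chabaudi, and the 5 naïve mice none. Mice of both groups were given chloroquine and pyrimethamine from day 14, and cells were taken 12 weeks after that treatment. EM γδ T cells were sorted as CD3+ γδTCR+ CD62L- CD44+ cells, and each mouse gave 1 library. In sorted bulk cells, a higher share of one cell type and more RNA of a gene per cell cannot be told apart.

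Libraries held 6587199 to 22542832 counts. Trdc, the constant chain of the δ receptor, was read in every library (1141 to 3873 CPM), and the summed level of 10 γδ T cell genes was 7687 to 12327 CPM in naïve and 5451 to 15943 CPM in pre-exposed mice. CPM are counts scaled by TMM to a common library size of 1e6. Pre-exposed mice 2 to 4 stood apart in 2 ways: their label descriptions carry no index pair, unlike those of all other libraries, and they held fewer mitochondrially encoded counts (below). A few genes dominated the library of pre-exposed mouse 5, where the top 10 held 24.7% of all counts (5.61% to 10.2% in each other library).

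Nuclear respiratory chain subunits were at higher mRNA levels in EM γδ T cells of pre-exposed mice. Of 75 subunits that passed the filter on low counts, 27 rose and none fell (edgeR quasi-likelihood test, adjusted p under 0.05). Over all 12655 genes tested, 5.12% were called higher and 1.17% lower, 6.29% in all. With no adjustment, 52 subunits were higher and 0 lower at p under 0.05, against 15.6% and 8.73% of all genes, and DESeq2 called 40 higher and 0 lower (7.97% and 2.70% of all genes). The median log2 fold change of the 75 subunits was 0.99, against 0.02 over all genes tested, and 73 of 75 values were above 0, against 51.3% of all genes. In 11 of the 76 subunits every pre-exposed mouse was above every naïve mouse (2.77% of all genes), and in 0 every pre-exposed mouse was below (2.17%). Among genes under 700 bases, 10 of 43 subunits and 106 of all 746 tested genes had every pre-exposed mouse above.

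The count of calls depended on single libraries and settings, for the subunits as for all genes. Among the subunits it was 0 without pre-exposed mouse 2 (53 higher at an unadjusted p under 0.05), with 0.588% of all genes called higher. It was 1 without naïve mouse 1 (Uqcrq, 0.971% of all genes) and 6, 17, 5 and 15 without naïve mice 2 to 5 (1.42%, 3.06%, 1.82% and 2.27%). Without pre-exposed mouse 1 it was 45 (9.47% of all genes). With the index pair as a covariate 0 subunits were called (0.308% of all genes; 52 subunits higher at an unadjusted p under 0.05). All libraries without a pair are pre-exposed, so this fit takes its group difference from pre-exposed mice 1 and 5 only. With the trend of each library with gene length removed, 0 were called too (1.38%; 11 subunits higher at an unadjusted p under 0.05). Of all tested genes under 700 bases, the class of 42 of the 75 subunits, 29.5% were called higher. With any 1 mouse left out, the median log2 fold change lay between 0.62 and 1.14. TREAT, which asks for a change beyond 1.5-fold, called 0 subunits and 0.0158% of all genes, with 18 subunits higher at an unadjusted p under 0.05 (4.43% of all genes).

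**Figure D1:**
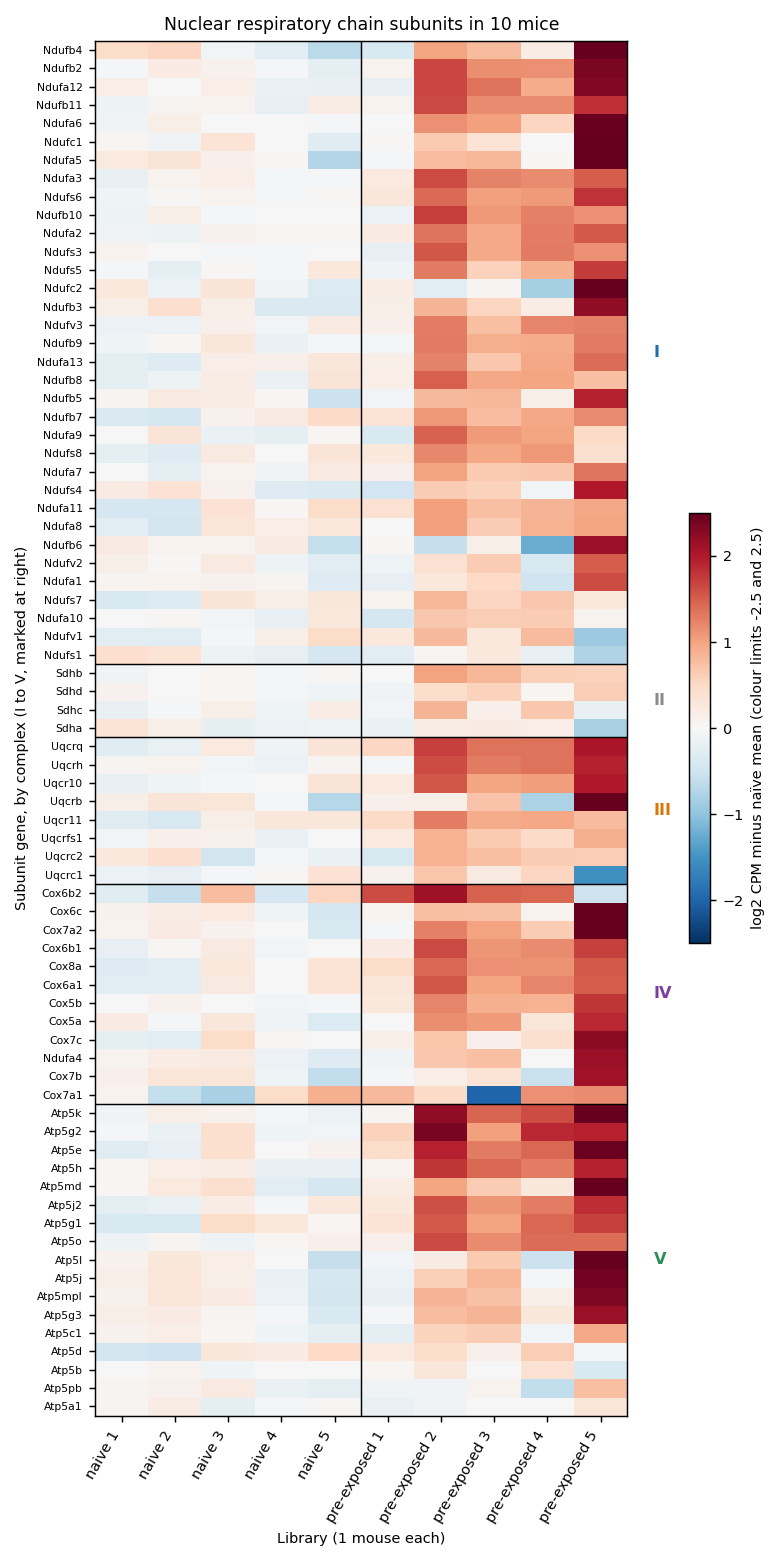
Colour gives each subunit's log2 CPM (prior count 2) minus its mean in the 5 naïve mice, for 75 of the 76 genes in rows grouped by complex and 10 mice in columns. Pre-exposed mice 2 to 5 are red over most rows, mouse 5 most deeply, pre-exposed mouse 1 is close to the naïve mice, and values beyond the colour limits (10 in pre-exposed mouse 5 are over 2.5) are drawn at the limit.

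The 5 pre-exposed mice differed from each other. Summed over the 76 genes, subunit mRNA came to 11249, 11628, 11728, 10466 and 10132 CPM in naïve mice 1 to 5. Pre-exposed mice 1 to 5 had 10912, 19513, 17586, 14679.5 and 33771 CPM. Pre-exposed mouse 1 lay within the naïve range and the other 4 above it. The median difference of the tested subunits from their naïve mean was 0.07, 1.01, 0.77, 0.66 and 1.64 on the log2 scale in pre-exposed mice 1 to 5. Pre-exposed mouse 1 was above all naïve mice in 12 of 76 subunits, and mice 2 to 5 in 65, 62, 51 and 65. The share of all genes above all naïve mice was not counted for single mice. These counts are therefore not read as particular to the subunits. As a plain share of all counts, which no scaling factor touches, the subunits took 1.03% to 1.12% in the naïve group, while pre-exposed mice 1 to 5 had 1.04, 1.78, 1.69, 1.52 and 2.12%.

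In mouse 5 the median difference was the largest of the 5, and 7 subunits lay below all naïve mice there. Among them were Atp5b, Ndufs1, Ndufv1, Sdha, Sdhc and Uqcrc1, which are longer genes and mostly catalytic or core subunits. In mouse 4, another 6 lay below all naïve mice (Atp5pb, Ndufa1, Ndufb6, Ndufc2, Ndufv2 and Uqcrb), and in mouse 1 another 7 did (Atp5c1, Ndufa9, Ndufa10, Ndufa12, Ndufb10, Ndufs3 and Ndufs4). How many of all genes lay below all naïve mice in a single mouse was not counted, so these numbers have no background share. Without mouse 5, edgeR called 33 subunits higher (9.69% of all genes tested) and 0 lower (5.72%), the 27 among them, and the median of the 75 was 0.62. The medians of complexes I to V were then 0.70, 0.32, 0.71, 0.74 and 0.46.

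Promoter sequence is shown for the called subunits with the smallest p-values, because genes of this family are known targets of the transcription factors NRF1, GABPA, YY1 and Sp1. The 250 bases before the start of transcription come from RefSeq (GRCm38.p6, the build of the count table), where 65 of the 76 subunits had an entry and where a start can differ by some bases from that of the table's annotation. The capitals mark matches on either strand to 5 motifs: NRF1 (GCGCATGCG), ETS or GABPA (CCGGAAGT), YY1 (AAGATGGCG), Sp1 (GGGGCGGGG) and the TATA box (TATAAA). Uqcrq, with the smallest p of all, is named only.
Atp5e (chr2:174464102-174464351, minus strand): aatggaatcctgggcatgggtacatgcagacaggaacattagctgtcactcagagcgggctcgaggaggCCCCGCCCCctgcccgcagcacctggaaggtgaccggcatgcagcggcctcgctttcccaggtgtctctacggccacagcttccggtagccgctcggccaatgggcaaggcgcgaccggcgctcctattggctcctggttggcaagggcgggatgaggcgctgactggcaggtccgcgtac
Ndufa3 (chr7:3617123-3617372, plus strand): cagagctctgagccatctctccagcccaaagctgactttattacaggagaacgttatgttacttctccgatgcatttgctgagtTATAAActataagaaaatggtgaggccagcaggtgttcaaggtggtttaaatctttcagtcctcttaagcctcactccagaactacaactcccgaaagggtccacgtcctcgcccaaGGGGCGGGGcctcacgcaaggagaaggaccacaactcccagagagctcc
Atp5k (chr5:108434400-108434649, minus strand): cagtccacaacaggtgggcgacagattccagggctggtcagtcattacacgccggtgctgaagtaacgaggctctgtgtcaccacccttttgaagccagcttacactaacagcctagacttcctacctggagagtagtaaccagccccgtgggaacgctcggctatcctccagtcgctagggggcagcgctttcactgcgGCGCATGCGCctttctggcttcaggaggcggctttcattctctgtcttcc
Atp5h (chr11:115419920-115420169, minus strand): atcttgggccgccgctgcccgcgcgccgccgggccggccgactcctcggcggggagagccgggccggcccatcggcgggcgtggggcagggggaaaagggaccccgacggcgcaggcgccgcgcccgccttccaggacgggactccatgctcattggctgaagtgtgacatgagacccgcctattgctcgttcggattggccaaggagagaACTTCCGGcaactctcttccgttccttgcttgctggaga

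In Atp5k the capitals are a palindromic NRF1 site read on both strands, which begins 50 bases before the start. In Atp5h they are an ETS motif on the other strand 39 bases before it. Atp5e holds 1 Sp1 motif, 181 bases before the start, and Ndufa3 an Sp1 motif at 49 and a TATA motif at 166 bases. Over windows of 300 bases (250 before to 50 after the start), the NRF1 motif stood in 8 of 65 subunits (12.3%), against 2.0% of 27025 genes. YY1 stood in 7 (10.8%, against 1.6%), ETS in 5 (7.7%, against 4.3%), Sp1 in 11 (16.9%, against 12.9%) and TATA in 6 (9.2%, against 15.7%). Of the 65 subunits with an entry, 24 were called. Called were 4 of the 8 subunits with the NRF1 motif, 2 of 7 with YY1, 4 of 11 with Sp1 and 1 of 6 with TATA. With ETS, 5 of 5 were called (Atp5h, Cox8a, Ndufs3, Uqcr11 and Uqcrh). Whether motifs go with calls was not tested. A match describes the letters only, and these windows bear on no binding measured here.

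**Figure D2:**
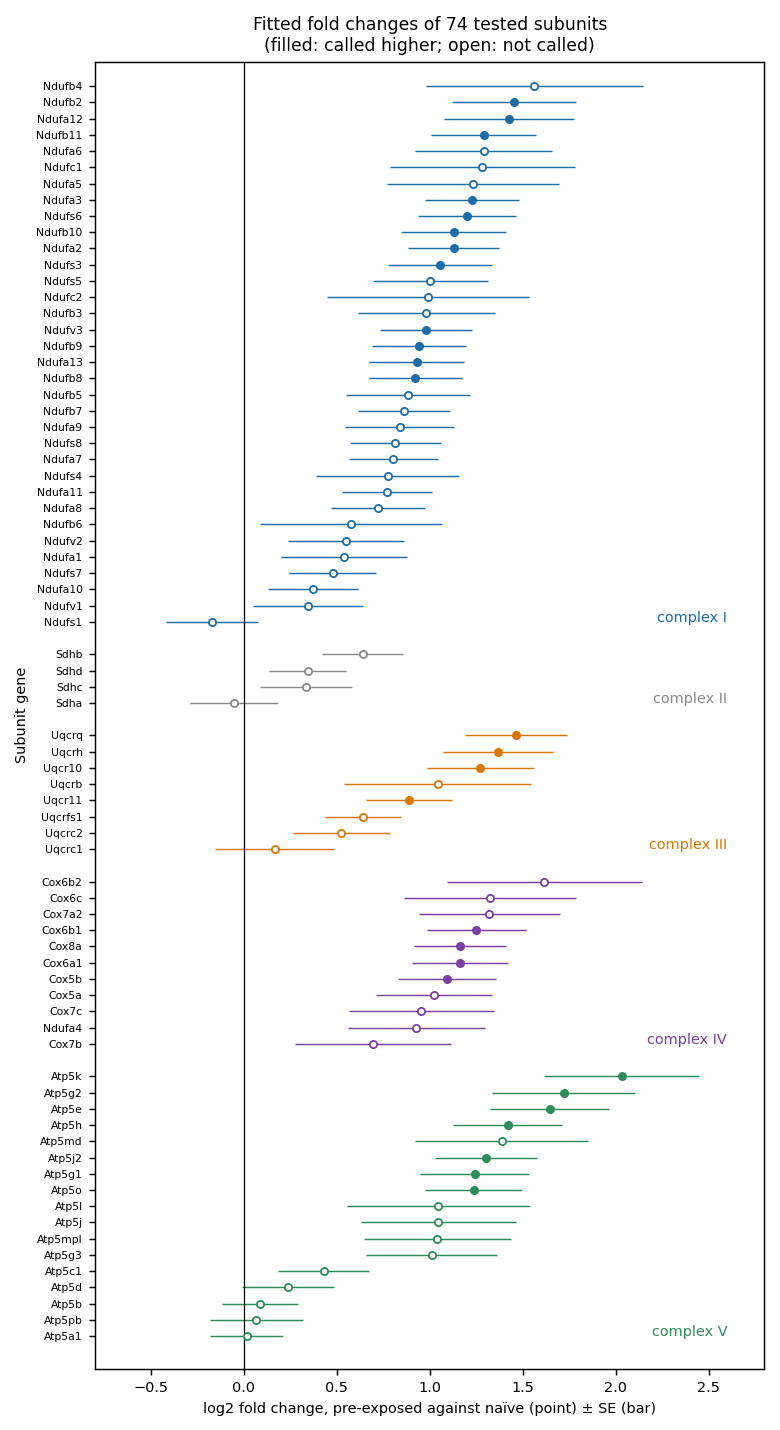
Points give the log2 fold change of 74 of the 75 tested subunits, pre-exposed against naïve, with bars of 1 SE, ordered within each complex. The 27 filled points were called higher, and the 2 points below 0 are Ndufs1 and Sdha.

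Complex I, the largest of the chain, had 12 of 35 subunits higher and a median log2 fold change of 0.93. The 12 were Ndufa2, Ndufa3, Ndufa12, Ndufa13, Ndufb2, Ndufb8, Ndufb9, Ndufb10, Ndufb11, Ndufs3, Ndufs6 and Ndufv3, with log2 fold changes from 0.92 for Ndufb8 to 1.45 for Ndufb2. Of these, 11 are among the 28 accessory subunits, which surround and stabilise the catalytic core. The median over the 28 was 0.98, and that over the 7 nuclear core subunits, most of which hold flavin or iron-sulfur clusters, was 0.48 with 1 called. The median gene length was 564 bases for the 28 and 1472 for the 7, and fold changes fell with length (below).

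Ndufa3, an accessory subunit of the membrane arm at chr7:3617347-3620165 whose promoter is printed above, had the smallest p in the complex. Ndufa3 was at 121, 148, 156, 136 and 135 CPM in naïve mice 1 to 5 and at 164, 429, 327, 313 and 395 CPM in pre-exposed mice 1 to 5. All pre-exposed mice were above all naïve mice, and mice 2 to 5 were far above mouse 1 (log2 fold change 1.23, SE 0.25, adjusted p = 0.0185, edgeR; exact two-sided permutation test, p = 0.00794, the smallest that 5 against 5 mice allow). Ndufa2, with a thioredoxin-like fold, and Ndufs6, a zinc-binding subunit, also separated the groups completely. Ndufa2 averaged 115 ± 7.60 CPM (SD, n = 5) in naïve and 250.4 ± 77.2 CPM (SD, n = 5) in pre-exposed mice (log2 fold change 1.13, adjusted p = 0.0224 from edgeR). Ndufs6 averaged 39.7 ± 2.17 CPM (SD, n = 5) in naïve and 91.5 ± 33.6 CPM (SD, n = 5) in pre-exposed mice (log2 fold change 1.20, adjusted p = 0.0224 from edgeR).

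Among the core subunits only Ndufs3 passed. Ndufs3 was at 50.9, 48.2, 47.2, 46.5 and 47.7 CPM in naïve mice 1 to 5 and at 41.7, 140.4, 93.4, 118 and 106 CPM in pre-exposed mice 1 to 5. Pre-exposed mouse 1 was the lowest of all 10 and the other 4 were above every naïve mouse (log2 fold change 1.05, SE 0.28, adjusted p = 0.0396, edgeR). Ndufs8 (log2 fold change 0.81, adjusted p = 0.0591 from edgeR) and Ndufs7 (0.48, 0.227), which carry clusters on the way to the quinone site, did not pass. Ndufv1 and Ndufv2, the flavin-bearing NADH dehydrogenase and its partner, had 0.34 and 0.55 (adjusted p = 0.504 and 0.296, edgeR).

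The lowest log2 fold change in the complex belonged to Ndufs1, the largest subunit of the complex. Ndufs1 was at 210.1, 199, 144, 138 and 118 CPM in naïve mice 1 to 5 and at 130.5, 162, 191, 139.6 and 94.1 CPM in pre-exposed mice 1 to 5. The groups overlapped widely, and the pre-exposed mice held both the lowest value, in mouse 5, and the third highest, in mouse 3 (log2 fold change -0.17, SE 0.25, adjusted p = 0.710, edgeR). Ndufa1, a short membrane subunit, had the highest level per length of the complex in naïve mice (686 ± 79.6 CPM per kilobase, RPKM, SD, n = 5) and did not pass. Ndufa1 was at 354, 358, 362, 352 and 269 CPM in naïve mice 1 to 5 and at 292, 404, 479, 238 and 1049.5 CPM in pre-exposed mice 1 to 5. Pre-exposed mouse 5 was highest and mouse 4 lowest of all mice (log2 fold change 0.54, adjusted p = 0.349, edgeR), and without mouse 5 the log2 fold change was 0.03. Among the 23 subunits of complex I that were not called, 13 had an unadjusted p under 0.05, all higher.

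**Figure D3:**
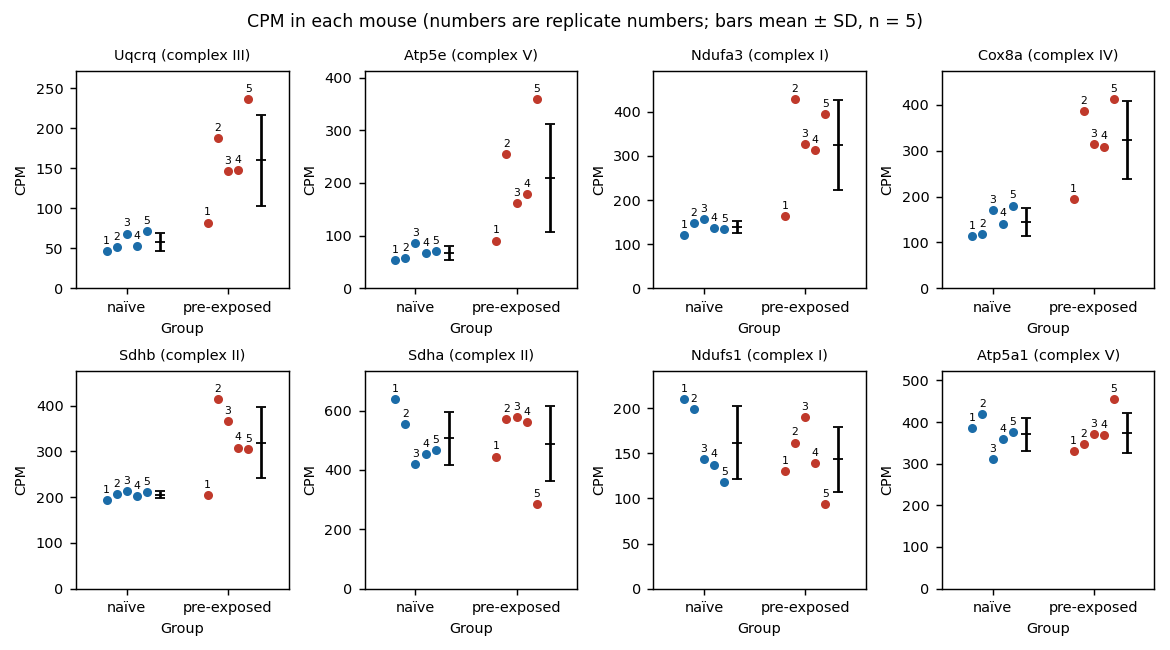
CPM of 8 subunits in each of 5 naïve and 5 pre-exposed mice (points, numbered by replicate), with mean ± SD beside them on axes that start at 0. The groups are apart in Uqcrq, Atp5e, Ndufa3 and Cox8a, and they overlap in Sdhb, where pre-exposed mouse 1 lies with the naïve mice, and in Sdha, Ndufs1 and Atp5a1.

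Complex II, succinate dehydrogenase, is the one complex of the chain whose subunits are all nuclear, and it is also part of the tricarboxylic acid cycle. None of its 4 subunits was called by edgeR, with 1 higher at an unadjusted p under 0.05 and 1 called by DESeq2, and the median log2 fold change was 0.34. Their summed level was 1079, 999, 884, 883 and 908 CPM in naïve mice 1 to 5. Pre-exposed mice 1 to 5 had 875, 1331, 1280.4, 1142 and 923 CPM, so that mice 2 to 4 were above all naïve mice and mice 1 and 5 were not.

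Sdhb, the iron-sulfur subunit, came closest. Sdhb was at 193, 207, 213, 202 and 210.4 CPM in naïve mice 1 to 5 and at 205, 414, 366, 309 and 304 CPM in pre-exposed mice 1 to 5. Mouse 1 lay within the naïve range and the other 4 above it (log2 fold change 0.64, SE 0.22, adjusted p = 0.0906, edgeR; exact permutation test, p = 0.0317). Sdha, the flavoprotein that oxidises succinate, did not follow. Sdha was at 638, 556, 421, 453 and 466 CPM in naïve mice 1 to 5 and at 445, 572, 579, 561 and 284 CPM in pre-exposed mice 1 to 5. Its lowest value was in pre-exposed mouse 5 and its highest in naïve mouse 1 (log2 fold change -0.05, SE 0.24, adjusted p = 0.914, edgeR). The membrane anchors Sdhc and Sdhd had log2 fold changes of 0.34 and 0.34 (adjusted p = 0.425 and 0.332, edgeR).

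In complex III, the cytochrome bc1 complex, 4 of 8 subunits rose and the median was 0.96. All 4 were small accessory subunits. Uqcrq, which binds beside cytochrome b, had the smallest p of all 75 subunits and lies at chr11:53427922-53430831. Uqcrq was at 46.5, 51.2, 68.2, 52.8 and 71.8 CPM in naïve mice 1 to 5 and at 82.2, 187, 146, 148 and 237 CPM in pre-exposed mice 1 to 5. Pre-exposed mouse 1 was a little above the highest naïve mouse and mouse 5 highest (log2 fold change 1.46, SE 0.27, adjusted p = 0.0133, edgeR; exact permutation test, p = 0.00794). The hinge subunit Uqcrh (1.37), Uqcr10 (1.27) and Uqcr11 (0.89) followed (log2 fold changes, adjusted p = 0.0216, 0.0244 and 0.0387 from edgeR), and in Uqcr11 the groups did not overlap.

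The Rieske iron-sulfur protein Uqcrfs1, a catalytic subunit, did not pass although its groups were apart. Uqcrfs1 was at 104, 119, 117, 96.5 and 110.4 CPM in naïve mice 1 to 5 and at 129, 198, 171, 151 and 203 CPM in pre-exposed mice 1 to 5. All pre-exposed mice were above all naïve mice, mouse 1 by the least (log2 fold change 0.64, SE 0.21, adjusted p = 0.0737, edgeR; exact permutation test, p = 0.00794). The core proteins Uqcrc1 and Uqcrc2 had log2 fold changes of 0.17 and 0.52 (adjusted p = 0.791 and 0.237, edgeR). Uqcrc1 was at 225, 214, 243, 251 and 317 CPM in naïve mice 1 to 5 and at 266, 399, 291, 358 and 85.2 CPM in pre-exposed mice 1 to 5. Here pre-exposed mouse 5 was the lowest of all mice, and mice 2 and 4 were above all naïve mice. Uqcrb, once named the ubiquinone-binding protein, with the highest level per length of the complex in naïve mice (543 ± 138 RPKM, SD, n = 5), was the reverse. Uqcrb was at 291, 331, 326, 257 and 160.4 CPM in naïve mice 1 to 5 and at 289, 291, 431, 153 and 1652 CPM in pre-exposed mice 1 to 5. It was highest in pre-exposed mouse 5 and lowest in mouse 4 (log2 fold change 1.04, SE 0.50, adjusted p = 0.222, edgeR), and without mouse 5 the log2 fold change was 0.07.

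Complex IV, cytochrome c oxidase, takes its catalytic core from mitochondrial DNA, and all its subunits here are nuclear accessory ones. Of 11 tested, 4 rose (Cox8a, Cox6b1, Cox6a1 and Cox5b), and the median was 1.16 (0.74 without pre-exposed mouse 5). Of the 7 others, 6 were higher at an unadjusted p under 0.05. Cox8a, a small subunit that crosses the membrane once, had the smallest p and lies at chr19:7215158-7217616. Cox8a was at 114, 117, 169.5, 141 and 180.2 CPM in naïve mice 1 to 5 and at 194, 386, 314, 309 and 413 CPM in pre-exposed mice 1 to 5. The lowest pre-exposed value, in mouse 1, was a little above the highest naïve one (log2 fold change 1.16, SE 0.25, adjusted p = 0.0198, edgeR; exact permutation test, p = 0.00794). In Cox5b, a zinc-binding subunit, the groups were also apart, at 57.7 ± 2.77 CPM (SD, n = 5) in naïve and 123 ± 48.8 CPM (SD, n = 5) in pre-exposed mice (log2 fold change 1.09, adjusted p = 0.0295 from edgeR). Cox6a1 and Cox6b1 had 1.16 and 1.25 (adjusted p = 0.0233 and 0.0203, edgeR).

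Several complex IV subunits exist as isoforms of different tissues. The widespread forms Cox6a1, Cox6b1, Cox7a2 and Cox8a averaged 198, 155, 151 and 144 CPM in naïve mice. The muscle form Cox6a2, which the rule leaves out, averaged 11.5 ± 2.75 CPM (SD, n = 5), the testis form Cox6b2 0.923 ± 0.468 CPM and the muscle form Cox7a1 0.539 ± 0.334 CPM. Per length, too, the widespread form was higher, with 371 RPKM for Cox6a1 against 17.5 for Cox6a2, 307 for Cox6b1 against 1.53 for Cox6b2, and 200.2 for Cox7a2 against 1.47 for Cox7a1. Cox6b2 was at 0.661, 0.517, 1.55, 0.591 and 1.30 CPM in naïve mice 1 to 5 and at 2.95, 4.23, 2.63, 2.57 and 0.545 CPM in pre-exposed mice 1 to 5. All but mouse 5 were above the naïve mice (log2 fold change 1.62, SE 0.52, adjusted p = 0.0745, edgeR), on 247 counts in all.

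At the count floor, Cox7a1 (78 counts in all), Cox6b2 (247) and Atp5g2 (1163) lay nearest above 50, and Cox7a1 was the subunit kept but not tested. Cox8c (5 counts, all in naïve mouse 1) and Cox7b2 and Cox8b (0 counts) lay below. A count of 0 allows up to 3 counts in a library, and such limits cover counting error only.

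Ndufa4, at 757 ± 118 RPKM (SD, n = 5), was the complex IV subunit with the highest level per length in naïve mice. Ndufa4 was at 389.6, 418, 430.2, 331 and 294 CPM in naïve mice 1 to 5 and at 347, 585, 622, 365 and 1630.2 CPM in pre-exposed mice 1 to 5. Pre-exposed mouse 5 was far above the rest, and mice 1 and 4 lay within the naïve range (log2 fold change 0.93, SE 0.37, adjusted p = 0.138, edgeR). Without mouse 5 its log2 fold change was 0.34. Cox7b had the smallest log2 fold change of the complex, 0.70 (adjusted p = 0.324, edgeR). Cox7b was at 309, 348, 346, 262 and 184 CPM in naïve mice 1 to 5 and at 274, 318, 357, 191 and 1213 CPM in pre-exposed mice 1 to 5. Its mean in pre-exposed mice rested on mouse 5, and without that mouse the log2 fold change was -0.05.

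Complex V, the ATP synthase, had 7 of 17 subunits higher and a median of 1.05 (0.46 without pre-exposed mouse 5), and its members spanned the widest range of the 5 complexes. In the membrane part and the peripheral stalk 6 of 12 were called: Atp5k and Atp5j2 of the subunits around the membrane domain, Atp5g1 and Atp5g2 of the c ring, and Atp5h and Atp5o of the peripheral stalk. In F1, the catalytic head counted here with the central stalk, Atp5e was called and the other 4 were not.

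Atp5k, subunit e, which helps join ATP synthases into dimers, had the largest fold change of all 75 subunits. Atp5k was at 30.8, 36.3, 35.4, 32.1 and 29.6 CPM in naïve mice 1 to 5 and at 34.3, 153, 89.7, 102 and 296 CPM in pre-exposed mice 1 to 5. Pre-exposed mouse 1 lay within the naïve range and the other 4 between 89.7 and 296 CPM (log2 fold change 2.03, SE 0.42, adjusted p = 0.0186, edgeR). Atp5k has 4 pseudogenes named after it, so how the counting shared its reads is uncertain. Atp5e, the ε subunit of the central stalk, had the smallest p of the complex. Atp5e was at 53.1, 57.0, 86.3, 66.6 and 70.7 CPM in naïve mice 1 to 5 and at 90.3, 255, 161, 179 and 359 CPM in pre-exposed mice 1 to 5. Every pre-exposed mouse was above every naïve mouse, mouse 1 by the least (log2 fold change 1.64, SE 0.32, adjusted p = 0.0151, edgeR; exact permutation test, p = 0.00794).

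The c ring, the rotor that protons turn, is encoded by 3 genes whose mature protein is the same. The least abundant of them, Atp5g2, separated the groups. Atp5g2 was at 3.82, 3.52, 5.31, 3.66 and 3.76 CPM in naïve mice 1 to 5 and at 5.99, 21.2, 8.20, 15.1 and 15.8 CPM in pre-exposed mice 1 to 5. All pre-exposed mice were above all naïve mice (log2 fold change 1.72, SE 0.38, adjusted p = 0.0233, edgeR). Atp5g1 followed at 22.0 ± 5.85 CPM (SD, n = 5) in naïve and 52.1 ± 17.0 CPM (SD, n = 5) in pre-exposed mice (log2 fold change 1.24, adjusted p = 0.0283 from edgeR). Atp5g3 gave most of the c ring mRNA in both groups, with 665 ± 99.3 RPKM (SD, n = 5) in naïve mice against 25.4 for Atp5g1 and 6.20 for Atp5g2, and it did not pass (log2 fold change 1.01, adjusted p = 0.0963, edgeR; 0.46 without pre-exposed mouse 5). The 2 genes that were called are thus the c ring genes with little mRNA. Atp5g3 was also higher at an unadjusted p of 0.0120 (edgeR), so this contrast rests on the threshold.

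The large F1 subunits Atp5a1 and Atp5b, the α and β subunits that form the catalytic sites, had values near 0. Their log2 fold changes were 0.02 (SE 0.20) and 0.09 (SE 0.20). Atp5c1 and Atp5d of F1, also not called, had 0.43 and 0.24. Atp5a1 was at 385, 419, 312, 358 and 376 CPM in naïve mice 1 to 5 and at 329, 347, 372, 368 and 455 CPM in pre-exposed mice 1 to 5. Both groups covered a similar range apart from pre-exposed mouse 5, the highest (log2 fold change 0.02, SE 0.20, adjusted p = 0.974, edgeR). Of the peripheral stalk, which holds the head still, Atp5h and Atp5o rose by 1.42 and 1.24 on the log2 scale (adjusted p = 0.0191 and 0.0197, edgeR), and in the membrane part Atp5j2 rose by 1.30 (adjusted p = 0.0197, edgeR). In these 3 genes pre-exposed mice 2 to 5 were at 159.9 to 345 CPM and no naïve mouse was above 115 CPM. The other stalk subunits, Atp5pb and Atp5j, missed the threshold with log2 fold changes of 0.07 and 1.05 (adjusted p = 0.898 and 0.138, edgeR). Atp5j had the highest level per length of all 76 subunits in naïve mice (761 ± 147 RPKM, SD, n = 5). Atp5j was at 628, 699.7, 629, 506 and 422 CPM in naïve mice 1 to 5 and at 513, 863, 1015, 550.5 and 3021 CPM in pre-exposed mice 1 to 5. Mice 2, 3 and 5 were above all naïve mice, mouse 5 by far the most, and without it the log2 fold change was 0.32.

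Levels per length in naïve mice thus ran from 1.47 RPKM for Cox7a1 to 761 RPKM for Atp5j. The next after Atp5j were Ndufa4 (757), Ndufa1 (686) and Atp5g3 (665). The SD of these 4 between mice was 79.6 to 147, and their differences within a mouse were not tested. Uqcrb followed with 543 ± 138 RPKM. Apart from Ndufa1, the top of this order held no complex I subunit until Ndufb6 (472 ± 96.3 RPKM).

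Among the subunits, the fold change fell as the gene got longer. Spearman's rho between log2 fold change and gene length was -0.68 over the 75 subunits, which share the 10 libraries, and -0.59 within complex I and -0.78 within complex V (17 genes). Of 42 tested subunits under 700 bases, 21 rose (median 1.16), of 14 with 700 to under 1200 bases 4 rose (0.85), and of 19 with 1200 bases or more 2 rose (0.37). Over all genes tested, 29.5%, 14.3% and 2.41% of these length classes were called higher, with medians of 1.06, 0.63 and -0.07. The subunits' median length was 644 bases, against 2665 for all genes tested. Roles differed in length too, with medians of 564 bases for complex I accessory and 1472 for its core subunits. They were 499 for complex III accessory subunits, 1769 for its core proteins, 365 for complex V membrane accessory subunits, 1801 for F1 and 1232 for complex II. Fold changes by role were not compared at like length. The 2 longer genes that were called, Ndufa13 and Ndufv3, have 1251 and 1580 bases, and the subunits near 0 are long, with 2927 bases for Ndufs1, 2859 for Sdha and 2432 for Atp5a1.

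Removing each library's trend with gene length took most of the difference away. The median of the 75 subunits was then 0.15, with 51 values above and 24 below 0, and edgeR called 0 of them (1.38% of all genes higher, 0.308% lower). At an unadjusted p under 0.05, 11 were higher (9.70% of all genes) and 1 lower, Ndufa1 (7.12%). The largest values were those of Atp5g2 (0.86), Ndufa11 (0.85), Cox6b2 (0.83) and Atp5k (0.78), and Ndufa11 had the smallest p (adjusted p = 0.115, edgeR). Among the 27 called subunits, Uqcr11 changed sign (-0.06) and the other 26 stayed above 0. Across the tested subunits, rho between a mouse's deviation from the mean of all mice and gene length was 0.25 to 0.49 in the naïve group, while pre-exposed mice 1 to 5 had 0.227, -0.236, -0.153, 0.0095 and -0.626. Whether length itself, or something that goes with it, set the fold changes of the subunits was not tested.

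**Figure D4:**
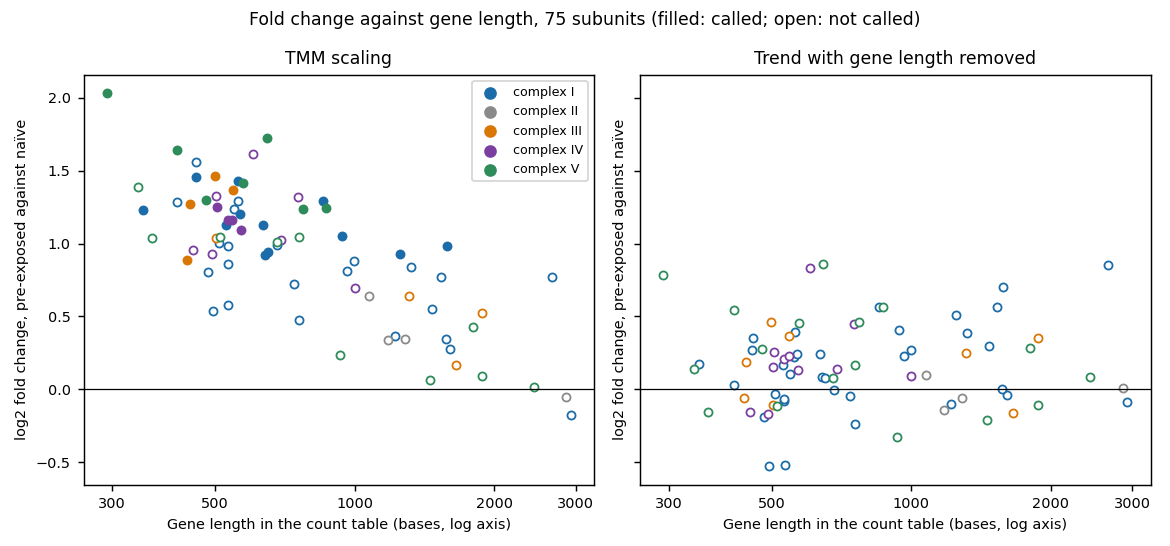
Log2 fold change of 75 subunits against gene length (log axis), coloured by complex, with TMM scaling alone at left and with each library's length trend removed at right. Filled points were called, 27 at left and 0 at right, and the downward slope at left (rho -0.68) is nearly flat at right (rho 0.07).

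The pre-exposed libraries without an index pair in their descriptions and those with one were also compared with the naïve mice separately, and both comparisons share the naïve mice. In mice 2 to 4, 44 subunits were called higher (15.1% of all genes) and 0 lower (14.5%), with 0 lower and 52 higher when p was not adjusted, and a median of 0.77. In mice 1 and 5, 0 were called (0.206% of all genes higher), 51 were higher at an unadjusted p under 0.05 (12.9%), and the median was 1.13. All 27 called subunits were among the 44. Median log2 fold changes of complexes I to V were 0.79, 0.42, 0.83, 0.92 and 0.57 in mice 2 to 4 and 0.96, 0.14, 0.99, 1.27 and 1.32 in mice 1 and 5.

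Single subunits kept or changed their size between the 2 sets of libraries. Uqcrq had log2 fold changes of 1.42 and 1.51 in mice 2 to 4 and in mice 1 and 5, and Ndufa3 had 1.31 and 1.06. Uqcrb had 0.05 and 1.89, and Atp5j 0.44 and 1.67, and both are higher in mouse 5 than in any other mouse. Uqcrc1 had 0.43 and -0.46. These differences between the sets were not tested.

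None of the subunits encoded by mitochondrial DNA was called. Of 13, edgeR called 0 in either direction, 0 had an unadjusted p under 0.05 and DESeq2 called 0, and their median log2 fold change was 0.13 (SE 0.53 to 0.88). They took 4.68, 4.19, 6.53, 4.89 and 3.99% of all counts in naïve mice 1 to 5 and 5.26, 0.908, 1.79, 0.789 and 9.40% in pre-exposed mice 1 to 5. Pre-exposed mice 2 to 4 lay below all naïve mice, mouse 5 above them and mouse 1 among them. For each 100 mitochondrially encoded subunit counts there were 17.0 to 26.9 nuclear ones in the naïve group, while pre-exposed mice 1 to 5 had 19.9, 196, 94.5, 193 and 22.6. The nuclear rise in mice 2 to 4 thus went with fewer mitochondrial reads and that in mouse 5 with more.

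**Figure D5:**
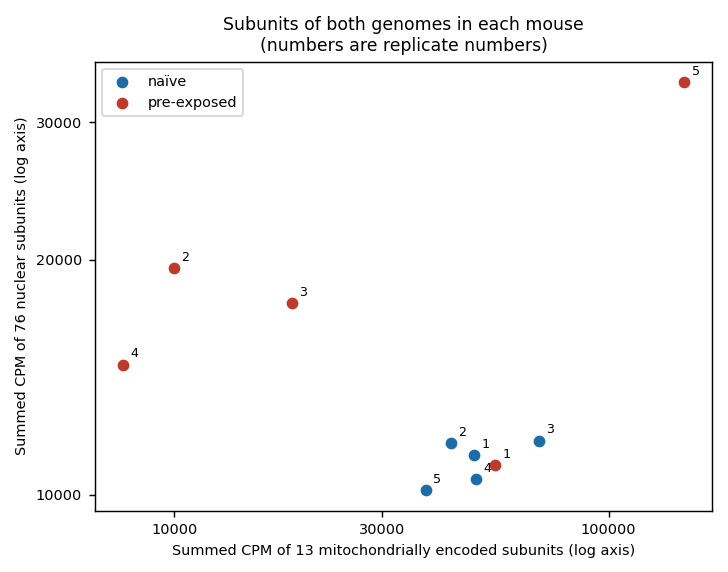
Summed CPM of the 76 nuclear subunits against summed CPM of the 13 mitochondrially encoded ones, 1 point per mouse, both axes on a log scale. Pre-exposed mice 2 to 4 are at the upper left, mouse 5 at the upper right, and mouse 1 among the 5 naïve mice.

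Other genes of the pathway are counted beside the 5.12% of all genes called higher, and differences between lists were not tested. Of 10 tested chain proteins outside the name rule, 1 rose, Cox4i1, the largest nuclear subunit of complex IV (log2 fold change 0.92, SE 0.25, adjusted p = 0.0426, edgeR). Cox4i1 was at 146, 136, 221, 192 and 241 CPM in naïve mice 1 to 5 and at 226, 447, 318, 401 and 375 CPM in pre-exposed mice 1 to 5. Mouse 1 lay within the naïve range and mice 2 to 5 above it. Cytochrome c1 (Cyc1) and cytochrome c (Cycs) missed the threshold with log2 fold changes of 0.10 and 0.60 (adjusted p = 0.843 and 0.464, edgeR).

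Of 14 complex I assembly factors, Ndufaf3 rose (log2 fold change 0.95, SE 0.25, adjusted p = 0.0399, edgeR), and of 30 factors for complexes II to V, 4 rose and 0 fell, with 2 lower at an unadjusted p under 0.05 and 0 lower by DESeq2. The 4 were Uqcc2, a complex III assembly factor (1.38), Pet100 (1.67) and Coa3 (1.09) for complex IV, and Sdhaf1, which serves the iron-sulfur clusters of complex II (0.98; log2 fold changes, adjusted p = 0.0167, 0.0222, 0.0312 and 0.0366 from edgeR). The medians of the 2 lists were 0.50 and 0.34.

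Of 17 tricarboxylic acid cycle enzymes, 1 rose, fumarate hydratase Fh1 (log2 fold change 1.02, SE 0.25, adjusted p = 0.0305, edgeR), and the median was -0.08. At an unadjusted p under 0.05, 2 were higher, Fh1 and Mdh2 (0.72), and 1 was lower, Pdha1 (-0.56). Fh1 was at 36.1, 44.2, 42.8, 36.0 and 32.1 CPM in naïve mice 1 to 5 and at 49.8, 115, 78.0, 80.9 and 64.7 CPM in pre-exposed mice 1 to 5. The groups did not overlap. Of 16 regulators of nuclear respiratory genes and mitochondrial DNA, among them Nrf1 (-0.33), Gabpa (-0.32), Ppargc1b (0.52) and Tfam (-3.9e-03), edgeR and DESeq2 called 0, with 0 at an unadjusted p under 0.05 and a median of -0.14. Gabpb2 had the smallest p of that list (log2 fold change -0.68, adjusted p = 0.285, edgeR). Of 7 tested mitochondrial carriers and channels, edgeR and DESeq2 called 0, with 0 at an unadjusted p under 0.05, and Vdac1 had the smallest p (log2 fold change 0.57, adjusted p = 0.211, edgeR).

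Some markers of other cells were higher in pre-exposed mice, in numbers that differed between the lists. Summed CPM of 9 B and plasma cell genes ran from 158 to 851 in the naïve and from 480.4 to 5368 in the pre-exposed group, with 3 of 5 tested genes called and Pax5 and Ebf1 at 0 counts in every library. The sums were 57.4 to 83.6 and 66.9 to 446 CPM for conventional dendritic cell genes (5 of 8 called), 152 to 205 and 224 to 614 for plasmacytoid dendritic cell genes (4 of 6), 231 to 310.0 and 522 to 2049.8 for monocyte and macrophage genes (6 of 6) and 80.1 to 471 and 386 to 2052 for erythroid genes (4 of 7). For αβ T cell genes they were 1642 to 1992 and 1576 to 3289 CPM (1 of 6 called), for NK cell genes 999 to 1662 and 1432 to 3661 (4 of 9) and for neutrophil genes 0 to 25.3 and 0 to 367 (0 of 2 by edgeR and DESeq2, 2 at an unadjusted p under 0.05). Pre-exposed mice 5 and 1 had the highest and lowest subunit sums of their group. In mouse 5, erythroid (2052 CPM), NK (3661), αβ T cell (2574), monocyte (522) and plasmacytoid (224) sums were above all naïve mice. Its conventional dendritic (66.9), B and plasma (660) and neutrophil (0) sums lay within the naïve range. In mouse 1, B and plasma (5359), conventional dendritic (431), plasmacytoid (613), monocyte (1610), NK (2120) and neutrophil (88.7) sums were above all naïve mice. Its erythroid sum (386) lay within the naïve range and its αβ T cell sum (1576) below it. The part of these cells in the subunits' difference was not tested.

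Some counts may hold reads of neighbours or copies. The span of 24 of the 76 subunit genes overlaps another annotated gene, among them the called genes Uqcrq (Gdf9), Uqcrh (Gm12854), Uqcr10 (Gm51883), Ndufa2 (Tmco6), Ndufa13 (Tssk6) and Ndufb11 (Rbm10), and also Atp5j, whose span overlaps that of Gabpa. Reads of such partners cannot be told apart, since no source used here states the strand setting of the counting. For 9 subunits there are pseudogenes named after them, and of these Atp5k (4), Uqcrh (2), Ndufa12 (1) and Cox5b (1) were called.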

How the data were processed

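RNA of EM γδ T cells sorted from the spleens of 5 naïve and 5 pre-exposed mice was sequenced, 1 library per mouse. Per the study's methods, the authors aligned reads to mm10 with Subread and deposited a table of whole-number counts per gene made with featureCounts and its built-in annotation. No source used here states versions or the strand setting. The methods and the labels name different library kits. Entrez identifiers of 25275 of 27179 genes were matched to symbols.

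Groups were compared with the edgeR (4.0.16, R 4.3.3) robust quasi-likelihood test after TMM scaling and filterByExpr. Genes without a symbol (767) and immunoglobulin genes (112) were left out, so that 12655 genes were tested with Benjamini-Hochberg adjustment at 0.05. CPM and RPKM use these scaled library sizes and the table's gene lengths. Exact two-sided permutation tests compared mean log2 CPM (prior count 2) of 5 against 5 mice. TREAT (limma 3.58.1, voom) at 1.5-fold, DESeq2 1.42.0, other scalings and filters, a length correction (loess per library) and left-out libraries were alternatives. The test was checked on simulated data. Within a group, each pair of libraries differed by more than sampling noise.

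Named genes were every called subunit, the subunits with the smallest p, lowest fold change or highest level per length of each complex, all of complex II, core subunits of complex I, tissue isoforms, those nearest the count floor, and, of each pathway list, the called genes and that with the smallest p. Ndufb4, Ndufa11, Ndufb6, Cyc1, Cycs and some further genes named with values were chosen after their values were seen. Values of 1 subunit are not reported here by name. Members and lists were chosen with earlier results of these data known.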

Additional observations from a re-analysis of the deposited data

Results flagged for a closer look

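Among 104 groups of 5 mice examined, 7 held 1 mouse far from the other 4 by Dixon's criterion. That criterion asks for a gap to the nearest mouse over 0.71 of the range, and chance alone gives such flags in about 5% of groups. The groups covered called subunits, those picked per complex by p, fold change or level, complex II, the complex I core, and library sums. Subunits printed for other reasons, among them Ndufb4, Ndufc1, Cox6c, Ndufb6 and Atp5g3, were not examined. In each of these, too, pre-exposed mouse 5 was the highest of all mice. Of the 7, 5 were high values in pre-exposed mouse 5. Complex V subunits summed to 10529 CPM there and to 3284 to 5372 CPM in the other pre-exposed mice. Uqcrb was at 1652 CPM against 153 to 431 CPM, Ndufa4 at 1630.2 against 347 to 622 CPM, Cox7b at 1213 against 191 to 357 CPM, and Atp5j at 3021 against 513 to 1015 CPM. The TMM factor of mouse 5 was 0.680, against 0.999 to 1.11 in the other 9 libraries, and its part in these values was not tested. In naïve mice, Ndufa1 was low in mouse 5 (269 CPM, against 352 to 362 CPM in the other 4), and Atp5g2 was high in mouse 3 (5.31 CPM, against 3.52 to 3.82 CPM).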

How the results depend on the processing

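The 27 subunits called higher became 26, 27, 20, 23, 27 and 22 with DESeq2 size factors, upper-quartile scaling, library totals alone, no filter, a filter of 50 counts and the older edgeR dispersion, all of them among the 27. DESeq2 called 40, leaving 2 without an adjusted p. With 1 mouse left out, 0 to 45 subunits were called higher and 0 lower, and of all genes 75 to 1255 were higher and 6 to 741 lower. Of all genes, 1008 and 342 were higher and lower by DESeq2 and 307 and 51 with the older dispersion, against 648 and 148. At 1.5-fold, TREAT called 0 subunits and 2 and 0 genes, and with quality weights 2 subunits (Atp5h and Uqcrq) and 166 genes higher, where Ndufs1 and Sdha turned to 0.12 and 0.16.

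The replicate numbers do not pair the mice. Deviations of same-numbered mice correlated at -0.10, -0.13, 0.00, 0.05 and -0.26, and no mouse matched its own number best. With the replicate block, 0 subunits were called (40 higher at an unadjusted p under 0.05), and 44 and 10 genes. With the index pair as a covariate, 0 subunits and 39 and 1 genes were called (52 subunits at an unadjusted p under 0.05), and Uqcrc1, Sdhc and Ndufv1 turned to -0.50, -0.13 and -0.22. The libraries without an index pair are all pre-exposed, so among the pre-exposed mice the pair and the mice themselves cannot be told apart. The group difference of the covariate fit thus rests on pre-exposed mice 1 and 5. With pre-exposed mice 1 and 5 alone, 0 subunits and 27 and 0 genes were called, and these 3 turned to -0.46, -0.080 and -0.17. With mice 2 to 4 alone, 44 subunits and 1992 and 1912 genes were called, and Sdha, Cox7b and Atp5a1 turned to 0.11, -0.053 and -0.091.

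With the length trend removed, 0 subunits and 175 and 39 genes were called. The medians became 0.15 over all subunits and 0.17, -0.028, 0.22, 0.15 and 0.17 over complexes I to V. Uqcr11, Ndufa1, Sdha, Uqcrc1 and Uqcrb turned to -0.056, -0.52, 0.0069, -0.16 and -0.11, and Ndufa4, Sdhd, Sdhc and Ndufs7 to -0.17, -0.062, -0.14 and -0.23. Atp5a1 was at -0.084 with library totals alone and at -5.29e-05 with the filter of 50 counts. With 1 mouse left out, log2 fold changes of Sdha ran from -0.15 to 0.053, of Atp5a1 from -0.099 to 0.061, of Uqcrc1 from -0.040 to 0.36 and of Cox7b from -0.048 to 0.89. Where no construction is named, the cause was not tested. Depth limits Cox7a1, Cox6b2 and Atp5g2, which rest on 78, 247 and 1163 counts.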

Other observations

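Several short subunits that did not pass the test were far higher in pre-exposed mouse 5 than in mice 2 to 4. Ndufb4, a membrane subunit of complex I, was at 12.3 to 28.7 CPM in naïve mice, and at 202 CPM in pre-exposed mouse 5, where mice 2 to 4 had 22.5 to 39.2 CPM and mouse 1 had 15.1 CPM. Ndufc1 was at 46.5 to 72.6 CPM in naïve mice, at 57.0 to 90.4 CPM in pre-exposed mice 1 to 4 and at 430.4 CPM in mouse 5. Cox6c of complex IV was at 157 to 249.6 CPM in naïve mice, at 224 to 356 CPM in pre-exposed mice 1 to 4 and at 1530.2 CPM in mouse 5. The adjusted p-values of Ndufb4, Ndufc1 and Cox6c were 0.115, 0.127 and 0.0972 (edgeR), and their log2 fold changes were 1.56, 1.28 and 1.32. Without pre-exposed mouse 5 these were 0.37, 0.24 and 0.40.

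Ndufb6 was lowest in pre-exposed mouse 4 and highest in mouse 5. It was at 163 to 288 CPM in naïve mice, and pre-exposed mice 1 to 5 had 252, 166, 272, 104 and 1090.4 CPM. Its log2 fold change was -0.53 in mice 2 to 4 (adjusted p = 0.176, edgeR) and 1.47 in mice 1 and 5.

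Ndufa11 is one of the longest subunit genes (2661 bases) and did not follow the relation with length. It was at 39.2 to 72.7 CPM in naïve mice and at 69.1, 108, 88.8, 95.1 and 103 CPM in pre-exposed mice 1 to 5, with a log2 fold change of 0.77 with TMM scaling alone and 0.85 with the length trend removed (adjusted p = 0.0712 and 0.115, edgeR).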
